A study of Mus musculus with 4 samples.

Results

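Collagens are the fibrous proteins of the extracellular matrix, built from alpha chains wound into a triple helix. Genes of collagen chains were taken by symbol (Col, a number, the letter a and a number) among the probe sets that carry 1 gene symbol. This gave 42 of the 18193 genes measured, on 82 probe sets, and where a gene had several, the one brightest on average over the 4 arrays stood for it. By the architecture of the protein, 11 members were fibrillar, 9 belonged to the basement membrane, 9 were fibril-associated collagens with interrupted triple helices (FACIT), 4 were transmembrane, and the remaining 9 formed beaded filaments or networks or fitted none of these classes. The collagen genes Col21a1, Col6a6 and Col28a1 were not analysed here.

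The samples were skin of wild-type female BALB/c mice, hybridised to 4 arrays that probe the 3′ ends of transcripts, 2 labelled Control and 2 labelled MC903. MC903 is calcipotriol, an analogue of vitamin D, and Control skin received ethanol (EtOH). Mice of both groups had earlier been sensitised on ear skin with ovalbumin (OVA) together with MC903, so the Control animals had met the agent as well, and had then been given OVA by mouth. Treatment with MC903 or ethanol came next, before a further oral dose of OVA. The labels give neither the age of the mice, nor the body site and time at which skin was taken for RNA, nor whether animals were pooled. Nor do they say whether the arrays of a group hold RNA of different mice. The p-values below therefore reflect the spread among these 4 samples alone, possibly technical, and with 2 arrays per group the precision is low.

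In dermis, fibroblasts lay down the thick fibrils of collagens I, III and V, and FACIT collagens sit on the surface of such fibrils and link them to other matrix. Basement membranes under the epidermis and around vessels, nerves and muscle fibres hold sheets of collagen IV. Anchoring fibrils of collagen VII tie the epidermal sheet to the dermis, and collagen XVII of the hemidesmosome ties the basal keratinocyte to it. Cartilage, which the mouse ear contains, has its own fibrils of collagens II, IX and XI.

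Each array had a trimmed mean signal of 500, with median signals of 90.2 to 109. Of the epidermal markers, 12 of 12 lay above the TrpnX control probe sets on both arrays of at least 1 group. These controls are made for bacterial transcripts and read 1.55 to 24.0. The epidermal markers had summed signals of 263804 and 250968 in Control and 287364 and 316923 in MC903. Fibroblast markers, 15 of 15 above those controls, summed to 81921 and 73605 in Control and to 78092 and 75282 in MC903, with 8 of the 15 genes lower and 3 higher on both MC903 arrays. Over all 18193 genes, 28.2% were lower and 21.6% higher in this way. Hair follicle markers were lower on both MC903 arrays for 13 of 13 genes, with sums of 30833 and 52592 in Control and 10575 and 9711 in MC903. Leukocyte markers were higher on both MC903 arrays for 12 of 12 genes, with sums of 28052 and 32063 in Control and 52770.4 and 41375 in MC903. Skeletal muscle markers, 14 of 14 above the TrpnX controls, summed to 92377 and 57793 in Control, 19287 in MC903 replicate 1 and 69041 in MC903 replicate 2. The lowest signal of any marker was 1.77, for Matn1 of cartilage, so none was at 0, and the part of these cell types in the collagen values was not tested. In whole skin, fewer cells of a type and less RNA per cell cannot be told apart.

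The stretches of 250 bases upstream of the annotated start are shown for members whose MC903 arrays both lay below both Control arrays and on which the results below turn: a dermal fibril pair (Col1a2, Col5a1), neighbouring collagen IV genes (Col4a5, Col4a6), the anchoring fibril gene Col7a1, and Col20a1, which had the most negative difference of all members. They come from RefSeq promoter windows of the GRCm38.p6 build, in which 33 of the 42 symbols matched, and run 5′ to 3′ on the strand of the gene. Capitals mark CCAAT and GGGCGG, in either orientation.
Col1a2 (chr6:4505368-4505617, plus strand): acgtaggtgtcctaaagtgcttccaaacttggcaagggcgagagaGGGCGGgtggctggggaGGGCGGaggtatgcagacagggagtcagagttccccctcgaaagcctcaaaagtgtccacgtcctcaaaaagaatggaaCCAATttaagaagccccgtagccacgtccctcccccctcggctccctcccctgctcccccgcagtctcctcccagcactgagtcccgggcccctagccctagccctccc
Col5a1 (chr2:27886175-27886424, plus strand): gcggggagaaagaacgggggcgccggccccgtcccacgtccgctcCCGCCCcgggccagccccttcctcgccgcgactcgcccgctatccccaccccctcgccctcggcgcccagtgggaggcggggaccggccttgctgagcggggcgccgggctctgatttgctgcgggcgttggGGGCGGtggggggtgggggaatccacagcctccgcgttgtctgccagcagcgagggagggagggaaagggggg
Col4a5 (chrX:141475169-141475418, plus strand): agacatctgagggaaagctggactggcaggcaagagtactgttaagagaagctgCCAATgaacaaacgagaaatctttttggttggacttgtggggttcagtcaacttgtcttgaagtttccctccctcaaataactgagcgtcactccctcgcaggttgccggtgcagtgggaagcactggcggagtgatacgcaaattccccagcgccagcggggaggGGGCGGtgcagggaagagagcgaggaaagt
Col4a6 (chrX:141474077-141474326, minus strand): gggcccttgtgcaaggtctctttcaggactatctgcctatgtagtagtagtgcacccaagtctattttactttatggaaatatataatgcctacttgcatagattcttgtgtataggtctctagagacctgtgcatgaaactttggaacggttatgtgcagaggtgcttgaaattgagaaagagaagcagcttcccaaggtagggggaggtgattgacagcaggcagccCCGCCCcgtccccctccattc
Col7a1 (chr9:108953336-108953585, plus strand): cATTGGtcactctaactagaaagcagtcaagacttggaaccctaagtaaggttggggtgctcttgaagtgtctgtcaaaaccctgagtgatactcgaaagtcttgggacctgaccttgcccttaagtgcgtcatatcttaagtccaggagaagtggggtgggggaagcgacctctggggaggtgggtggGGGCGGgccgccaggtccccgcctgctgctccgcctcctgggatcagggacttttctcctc
Col20a1 (chr2:180986285-180986534, plus strand): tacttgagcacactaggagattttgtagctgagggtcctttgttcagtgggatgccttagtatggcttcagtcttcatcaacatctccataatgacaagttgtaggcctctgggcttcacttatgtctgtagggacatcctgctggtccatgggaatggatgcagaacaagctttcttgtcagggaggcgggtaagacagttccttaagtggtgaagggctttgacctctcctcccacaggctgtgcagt

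CCAAT, the box bound by the factor NF-Y, was found in 1 place each upstream of Col1a2, Col4a5 and Col7a1, and GGGCGG, the box of Sp1-type factors, in every stretch shown except that of Col20a1. Over all windows of the same length, read on both strands, 33.9% of 32851 held CCAAT and 32.7% held GGGCGG. Of the 36 windows of collagen members, 13 (36.1%) held CCAAT and 21 (58.3%) held GGGCGG. The TATAAA box was in 5 of the 36 (13.9%) and in 12.4% of all windows. The vitamin D receptor binds paired half-sites with 3 bases between, of the form AGGTCA with variants such as AGTTCA. Pairs in any combination of these with GGTTCA as well as with GGGTCA were in 0 of the 36 collagen windows and in 13 of all windows (0.0396%). With so small a share over all windows, a count of 0 in 36 says nothing about binding of the receptor. The marked motifs did not overlap each other in the stretches shown, and a match is a description of the letters in this window.

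Collagen transcripts were mostly at similar or slightly lower signals in MC903 skin, and no member was called. Both MC903 arrays lay below both Control arrays for 15 of the 42 members (35.7%), against 28.2% of all 18193 genes, and above them for 2 (4.76%), against 21.6% of all genes. The 15 lower members included the dermal fibril genes Col1a1, Col1a2 and Col5a1, the epidermal basement membrane genes Col7a1 and Col17a1, and 3 of 6 collagen IV chains, and their differences came to 1.25-fold to 2.09-fold. The 2 higher members were Col10a1 and Col15a1. The share of lower members was near that of all genes and the share of higher members was below it, a description only, since the members were not tested as a list. Differences are given throughout as MC903 minus Control in log2(signal + 16), which understates those of dim genes, with the standard error (SE) of the fit and 2 arrays per group.

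Limma with a constant prior variance called 0 of the 42 members at an adjusted p below 0.05 (Benjamini-Hochberg over all genes, smallest adjusted p = 0.179, for Col25a1), against 0.0275% of all genes. Those were the 5 genes Fxyd4, Krtap5-1, Krtap5-5, Lpo and Sprr2h. With a prior that follows the signal, limma again called 0 members, with a smallest adjusted p of 0.0631 for Col16a1, against 0.923% of all genes. Without adjustment, 7 members were lower and 2 higher at a p below 0.05, beside 8.41% and 6.81% of all genes. No member had every MC903 array 2-fold away from every Control array, as 0.819% of all genes were on the lower and 1.17% on the higher side. With 2 arrays per group, the smallest two-sided p that an exact permutation test allows is 0.333.

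The median difference over the 42 members was -0.22, and over all genes -0.037. The difference was below 0 in 32 members, against 54.3% of all genes, and above 0 in 10. Taken by array against the Control mean, the member medians were -0.35 for MC903 replicate 1 and -0.29 for MC903 replicate 2. When every array was centred on its median, the counts came to 14 lower and 2 higher members, beside 21% and 28.8% of all genes. Against the TrpnX controls, 38 of the 42 members were above the highest of them on both arrays of at least 1 group. The 4 that were not, Col6a4, Col6a5, Col22a1 and Col26a1, had signals of 2.83 to 79.3 on the probe sets that stood for them, and on these the groups overlapped. Col6a5 and Col6a4 are collagen VI chains, Col22a1 is a chain of tissue junctions such as that of muscle and tendon, and Col26a1 is a little studied chain, with differences of -0.14 ± 0.47, -0.21 ± 0.34, -0.038 ± 0.76 and -0.24 ± 0.25. Col22a1 had a further pair of probe sets, which read above the TrpnX controls on both Control arrays (46.3 and 57.1, and 37.2 and 46.7) and below the highest of them on both MC903 arrays (22.9 and 9.69, and 2.19 and 6.36). Both were lower without overlap, with differences of -1.10 and -1.52, so the probe sets of Col22a1 disagree. The other Col26a1 probe set was higher without overlap, at 5.21 and 4.31 in Control and 37.2 and 19.8 in MC903 (1.07). It was above the highest TrpnX control on only 1 array.

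**Figure D1:**
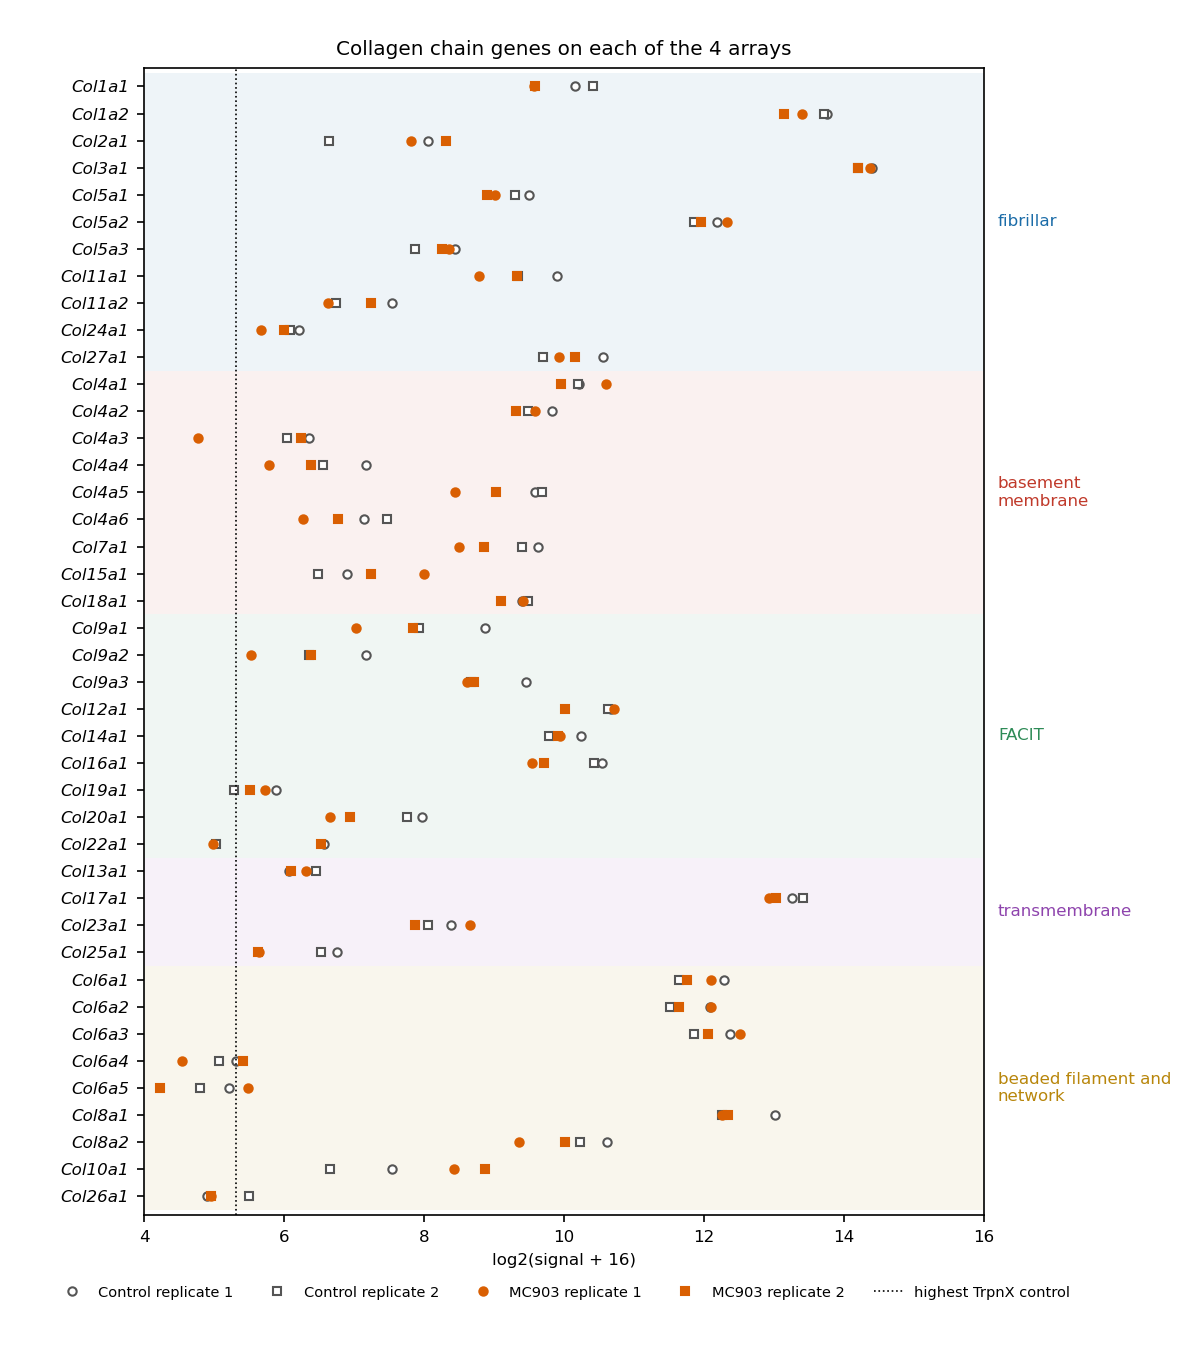
Level of each of the 42 collagen genes as log2(signal + 16) on the 4 arrays (grey open symbols, Control; orange filled symbols, MC903; circles, replicate 1; squares, replicate 2), grouped by class, with the highest TrpnX control as a dotted line. Levels of different genes come from different probes and are not comparable; within a row, 15 genes have both orange symbols left of both grey ones and 2 have them right.

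Among the fibrillar collagens, the chains of collagen I were lower on both MC903 arrays, collagen III was nearly level, and the cartilage chains varied from array to array. Col1a1, the main chain of dermal fibrils, had signals of 1126 and 1345 in Control and 745 and 754 in MC903. The MC903 arrays were close to each other and both below Control, a difference of -0.70 ± 0.17 (limma, adjusted p = 0.235). Its partner chain Col1a2 had signals of 13794 and 13369.8 in Control and 10772 and 9071 in MC903, with both MC903 arrays again below and a difference of -0.46 ± 0.17 (limma, adjusted p = 0.334). Col3a1, which forms fibrils together with collagen I, had signals of 21639.8 and 18874 in Control and 21105 and 18789.8 in MC903. Its groups overlapped, and the difference of -0.021 ± 0.17 had a 95% interval from -0.49 to 0.45, which holds differences as large as that of Col1a2.

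Collagen V starts fibrils and limits their width, and 1 of its 3 chains was lower without overlap. Col5a1 had signals of 705 and 616 in Control and 499 and 459.9 in MC903, lower on both MC903 arrays by a difference of -0.45 ± 0.17 (limma, adjusted p = 0.333). Col5a2, its usual partner, had signals of 4656 and 3696 in Control and 5126 and 3960.4 in MC903, and the third chain, Col5a3, had signals of 332 and 217 in Control and 311 and 289 in MC903. For these 2 genes the groups overlapped, with differences of 0.12 ± 0.23 and 0.15 ± 0.25. Of the fibrillar collagens best known from cartilage, Col11a1 had signals of 938 and 633 in Control and 424 and 625 in MC903, with 1 MC903 array only just below the lower Control array and a difference of -0.57 ± 0.30. Col2a1, the main cartilage collagen, had signals of 249.99 and 84.2 in Control and 209 and 301 in MC903, Control replicate 2 standing apart below the other 3 arrays. Its difference of 0.71 ± 0.53 ranged from 0.0055 to 1.41 when single arrays were left out. Col11a2 had signals of 171 and 91.02 in Control and 82.6 and 136 in MC903, and Col27a1, of cartilage and other tissues, of 1496 and 814 in Control and 959.8 and 1125 in MC903. Both overlapped between the groups (-0.21 ± 0.38 and -0.087 ± 0.34). Col24a1 was dim, at 58.1 and 52.02 in Control and 34.8 and 47.8 in MC903, with a difference of -0.32 ± 0.19. As a class, the 11 fibrillar genes had a median difference of -0.21, 5 of them being lower without overlap and 0 higher beside 28.2% and 21.6% of all genes, and the median was 0.077 without Control replicate 1.

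In the basement membrane class 3 of the 6 collagen IV chains and the anchoring fibril chain were lower on both MC903 arrays, and Col15a1 was higher. These counts hold for the probe sets that stood for the genes. Col4a1 and Col4a2 encode the chains of the collagen IV found in nearly all basement membranes. Col4a1 had signals of 1167 and 1162 in Control and 1529.8 and 975 in MC903, and Col4a2 of 889 and 697 in Control and 752 and 619.6 in MC903. Their groups overlapped, with differences of 0.069 ± 0.26 and -0.20 ± 0.21. Col4a5 and Col4a6, which are partners in the epidermal basement membrane, were both lower. Col4a5 had signals of 756 and 811 in Control and 331 and 506 in MC903, a difference of -0.91 ± 0.25 (limma, adjusted p = 0.260). Col4a6 had signals of 126 and 162 in Control and 61.1 and 93.6 in MC903, a difference of -0.79 ± 0.25 (limma, adjusted p = 0.295). In both, MC903 replicate 1 was the lowest array and no MC903 array reached a Control array.

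Col4a3 and Col4a4, partners in kidney and some other basement membranes, were dim. Col4a4 had signals of 129 and 77.8 in Control and 39.4 and 67.3 in MC903 and a difference of -0.78 ± 0.33. A second Col4a4 probe set above the TrpnX controls on all arrays overlapped between the groups. It read 80.4 and 44.7 in Control and 33.4 and 52.8 in MC903 (-0.39). Col4a3 had signals of 65.6 and 50.04 in Control and 11.4 and 59.9 in MC903, 1 MC903 array reading no higher than the TrpnX controls and the other between the Control arrays, and a difference of -0.69 ± 0.53. The other Col4a3 probe set was above the TrpnX controls on all arrays and lower without overlap. It read 58.4 and 60.7 in Control and 35.8 and 27.8 in MC903 (-0.67). Which of these 2 chains counts as lower thus depends on the probe set. The collagen IV genes lie in head-to-head pairs, and in the RefSeq windows the starts of Col4a1 and Col4a2 were 21 bases apart on chromosome 8 and those of Col4a5 and Col4a6 1343 bases apart on chromosome X.

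Col7a1, the chain of the anchoring fibrils, had signals of 776 and 658 in Control and 347 and 446 in MC903, a difference of -0.84 ± 0.21 (limma, adjusted p = 0.236) with both MC903 arrays below Control. Col15a1 and Col18a1 encode basement membrane collagens with many interruptions of the helix. Col15a1, best known around capillaries and muscle fibres, had signals of 104 and 73.5 in Control and 241 and 135 in MC903, higher on both MC903 arrays by 0.93 ± 0.33 (limma, adjusted p = 0.319). Col18a1, whose end fragment is endostatin, had signals of 659.6 and 701 in Control and 666 and 534 in MC903, which overlapped between the groups (-0.19 ± 0.19). Beside Col15a1, endothelial markers were lower on both MC903 arrays for 1 of 12 genes and higher for 3, beside 28.2% and 21.6% of all genes. The higher ones included Plvap of fenestrated vessels (0.87 ± 0.22) and the junction gene Cdh5 (0.55 ± 0.19). Their summed signals were 5373 and 4445 in Control and 6757 and 5639 in MC903, and their part in the Col15a1 value was not tested. The 9 genes of the class had a median difference of -0.69, with 4 lower and 1 higher without overlap, again beside 28.2% and 21.6% of all genes. The median was -0.34 without MC903 replicate 1 and -1.01 without MC903 replicate 2. It was -0.20 without the dimmer 50% of genes and -0.24 with probe sets averaged.

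**Figure D2:**
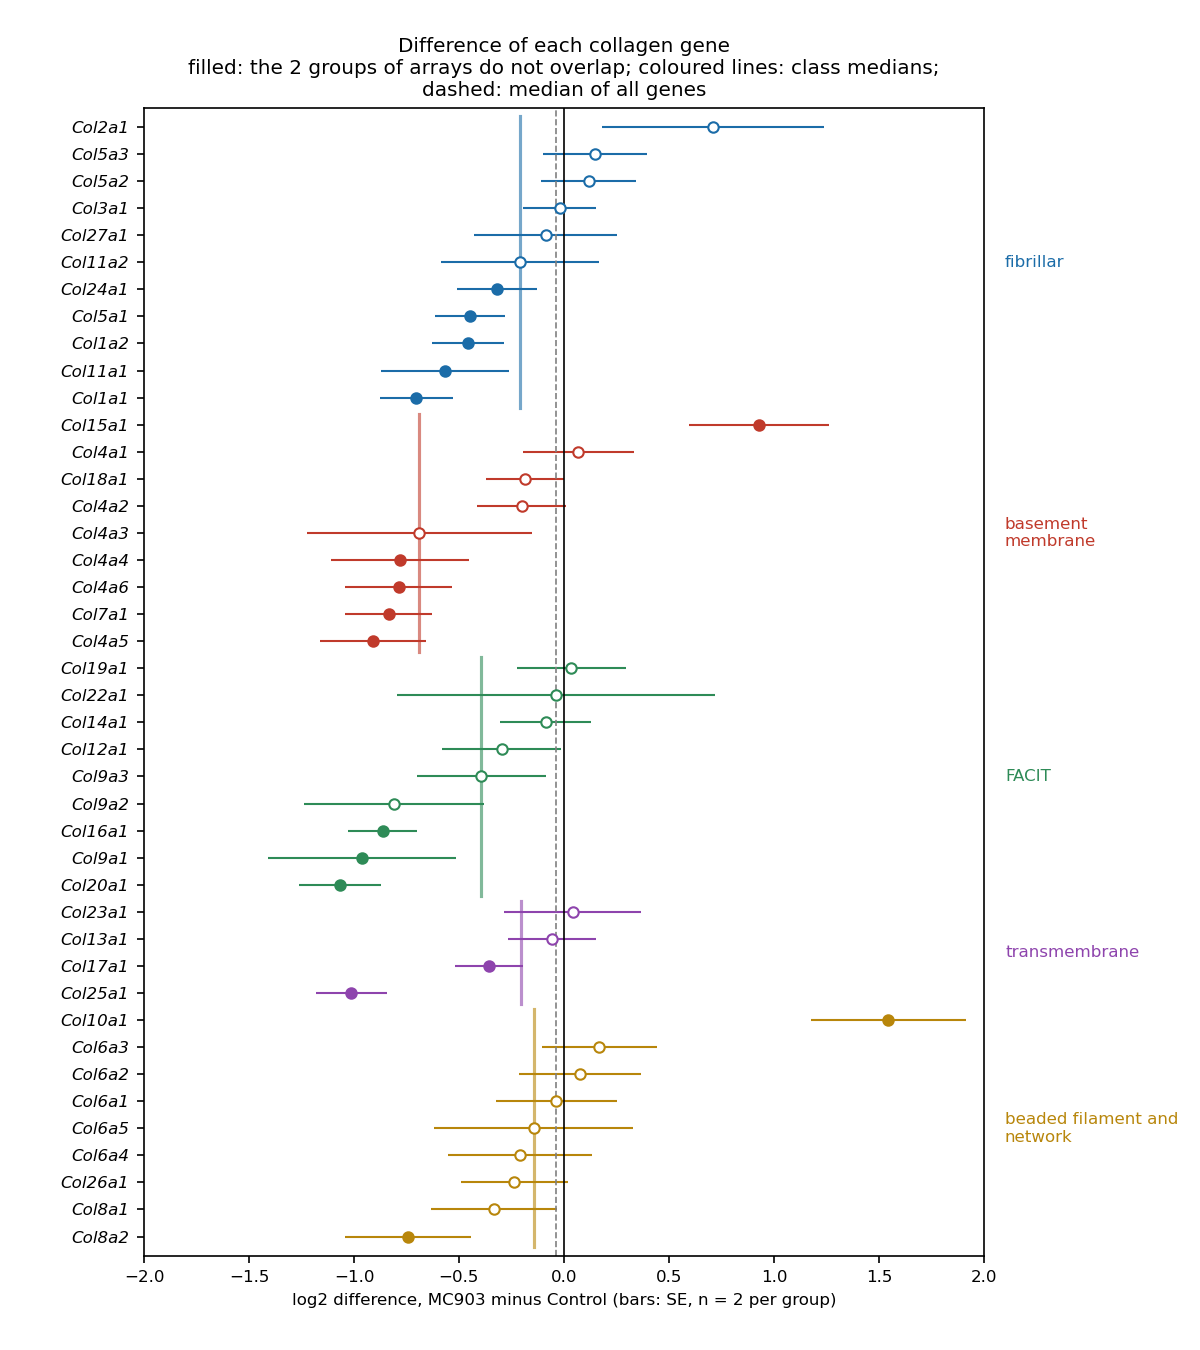
Difference of each collagen gene, MC903 minus Control, on the log2(signal + 16) scale (points) with its SE (bars, 2 arrays per group), by class. Filled points mark the 17 genes whose groups of arrays do not overlap, coloured lines class medians and the dashed line the median of all genes (-0.037). The basement membrane median lies farthest to the left, and Col10a1 and Col15a1 are the filled points right of 0.

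FACIT collagens had a median difference of -0.39 over 9 genes, 3 of them lower without overlap and 0 higher, beside 28.2% and 21.6% of all genes. Col16a1, which fibroblasts and keratinocytes make, had signals of 1481 and 1367 in Control and 730.03 and 823 in MC903. The gap between the groups exceeded both gaps between replicates, and the difference was -0.86 ± 0.16 (limma, adjusted p = 0.194, or 0.0631 with the prior that follows the signal). Col20a1, a little studied FACIT chain, had signals of 235 and 201 in Control and 84.6 and 108 in MC903, a difference of -1.07 ± 0.19 (limma, adjusted p = 0.190). Beside it, Schwann cell markers (6 measured of 9 listed) had summed signals of 5554 and 3075 in Control and 2257 and 2958 in MC903. The hair follicle markers given above were lower as well, and the part of either cell type in the Col20a1 value was not tested.

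Col12a1 and Col14a1, which coat the collagen I fibrils of dense connective tissue, overlapped between the groups on the probe sets that stood for them. Col12a1 had signals of 1621 and 1574 in Control and 1658 and 1013 in MC903, and Col14a1 of 1199 and 870.2 in Control and 972 and 949 in MC903, with differences of -0.30 ± 0.28 and -0.088 ± 0.22. A second Col14a1 probe set, above the TrpnX controls on all arrays, was lower without overlap. It read 593 and 416 in Control and 383 and 327 in MC903 (-0.47), so the probe sets of Col14a1 disagree. The 3 chains of collagen IX, which decorates cartilage fibrils, were highest on Control replicate 1. Col9a1 had signals of 451 and 227 in Control and 115 and 213 in MC903, with only a small gap between the groups and a difference of -0.96 ± 0.45. Its other probe set, above the TrpnX controls on all arrays, overlapped between the groups. That probe set read 178 and 90.9 in Control and 66.3 and 123 in MC903 (-0.43). Col9a2 had signals of 128 and 66.03 in Control and 30.1 and 67.4 in MC903, and Col9a3 of 685 and 392 in Control and 377 and 405 in MC903, and both overlapped between the groups (-0.81 ± 0.43 and -0.39 ± 0.31). Col19a1, known from muscle and brain, was dim, at 43.1 and 23.2 in Control and 37.03 and 29.8 in MC903, with 1 array within the range of the TrpnX controls.

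Of the transmembrane collagens, Col17a1 and Col25a1 were lower on both MC903 arrays. Col13a1 and Col23a1 overlapped on the probe sets that stood for them. Col17a1, the hemidesmosome component of basal keratinocytes, had signals of 9758 and 10898 in Control and 7750.3 and 8362 in MC903, a difference of -0.36 ± 0.16 (limma, adjusted p = 0.395). Basal keratinocyte markers (9 measured of 10) were lower without overlap for 4 genes and higher for 4, beside 28.2% and 21.6% of all genes, with a median difference of 0.047. Col25a1, a chain known from motor innervation of muscle, had signals of 92.4 and 76.4 in Control and 33.9 and 33.4 in MC903, a difference of -1.01 ± 0.17 (limma, adjusted p = 0.179). The gene was dim, its MC903 signals lying not far above the highest TrpnX control of 24.0. Its other probe set overlapped, at 10.2 and 55.3 in Control and 11.2 and 14.4 in MC903, and was above those controls on 1 array. Skeletal muscle markers, with the sums given above, were lower without overlap for 3 of 14 genes and higher for 0, and their part in the Col25a1 value was not tested. Col23a1 had signals of 319 and 251 in Control and 388 and 218 in MC903, and Col13a1, found at neuromuscular junctions and in other adhesions, of 51.4 and 71.6 in Control and 63.4 and 52.7 in MC903. Their differences were 0.042 ± 0.33 and -0.057 ± 0.21. Of 3 Col23a1 probe sets, all above the TrpnX controls on every array, 1 was higher without overlap. It read 145 and 164 in Control and 169 and 182 in MC903 (0.17).

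Collagen VI, the beaded microfibril of the dermis, differed between the groups by less than the spread between replicates. Col6a1 had signals of 4957 and 3191 in Control and 4369.7 and 3442 in MC903, Col6a2 of 4319.7 and 2907 in Control and 4383 and 3192 in MC903, and Col6a3 of 5275 and 3709.6 in Control and 5811 and 4256 in MC903. In all 3 chains the first array of each group was above the second, and the groups overlapped. Their differences were -0.036 ± 0.29, 0.078 ± 0.29 and 0.17 ± 0.27. The 95% interval of Col6a3 ran from -0.57 to 0.91, which leaves room for differences in either direction.

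The network collagen VIII, known from vessel walls and the eye, had 1 chain lower on the probe sets that stood for its genes. Col8a2 had signals of 1558 and 1184 in Control and 638 and 1017 in MC903, a difference of -0.74 ± 0.30 (limma, adjusted p = 0.356), and Col8a1, at 8269 and 4888 in Control and 4902 and 5188 in MC903, overlapped between the groups (-0.33 ± 0.30). Of 3 Col8a1 probe sets, 1 was lower without overlap, at 1045 and 627 in Control and 572 and 487 in MC903 (-0.60). Col10a1, the network collagen of hypertrophic cartilage, had the largest difference in size of the 42 members. Its signals were 170.4 and 85.3 in Control and 327 and 452 in MC903, higher on both MC903 arrays by 1.54 ± 0.37 (limma, adjusted p = 0.231), and the difference ranged from 1.10 to 1.99 when single arrays were left out. Col10a1 is measured here by 1 probe set. The 9 genes of this mixed class had a median of -0.14, and this sign did not hold: the median was 0.17 with probe sets averaged, 0.021 without the dimmer 25% of genes, 0.065 without Control replicate 1 and 0.14 without MC903 replicate 2.

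Several collagens varied more between replicate arrays than between the groups. Control replicate 1 was above Control replicate 2 for 35 of the 42 members (83.3%) and 50.6% of all genes, with a median gap of 0.34 against 0.0035. The MC903 replicates had no such lean, replicate 1 being above replicate 2 for 19 members (45.2%) and 48.1% of all genes. The difference between the groups exceeded both replicate gaps in 16 members (38.1%) and in 36.3% of all genes. Without Control replicate 1, the members with no overlap came to 18 lower and 12 higher, beside 38.9% and 32.3% of all genes. Without Control replicate 2 they came to 28 and 4, beside 40.3% and 32.5%.

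Among the members known from cartilage, 6 were highest on Control replicate 1. Col9a1, Col9a2, Col9a3, Col11a1, Col11a2 and Col27a1 were these 6, and in each of them MC903 replicate 2 was above MC903 replicate 1, though the rest of the order differed. This was not particular to members known from cartilage. Col4a3, Col4a4, Col7a1, Col8a1, Col8a2, Col16a1, Col20a1, Col22a1 and Col24a1 were also highest on Control replicate 1, with MC903 replicate 2 above replicate 1. The sums of skeletal muscle and Schwann cell markers given above had this order too. Col2a1 and Col10a1, given above, were instead highest on MC903 replicate 2. Markers of cartilage other than collagens, 14 of 14 measured and 13 of 14 above the TrpnX controls on both arrays of a group, summed to 32166 and 22432 in Control and 17619 and 25994 in MC903, with the same array higher in each group as in those 6 members. Much of the sum was Cytl1, at 15146 and 10644 in Control and 8828 and 13559.5 in MC903. Matn1, Matn3, Matn4, Epyc and Sox9 did not have this order in both groups, and the remaining markers did. Acan, the large proteoglycan of cartilage, had signals of 1976 and 873 in Control and 1028 and 1674 in MC903, and Chad, a cartilage protein that binds cells, of 4059 and 2858 in Control and 1915 and 3824 in MC903. One defining cartilage marker, Matn1, stayed within the range of the TrpnX controls on all arrays, at 1.77 and 4.29 in Control and 10.3 and 9.83 in MC903. Sox9, the transcription factor of cartilage that is also active in hair follicles, was lower on both MC903 arrays (-0.80 ± 0.22), as was the matrix gene Cilp (-1.43 ± 0.22). Of the 14 markers, 4 were lower and 3 higher without overlap (28.2% and 21.6% of all genes), the higher ones being Matn1, Ucma (0.72 ± 0.20) and Epyc (0.56 ± 0.22). Acan, Chad, Cytl1, Ucma, Epyc, Matn1, Matn3 and Matn4 were named after their values were seen. The part of cartilage in these collagen values was not tested.

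**Figure D3:**
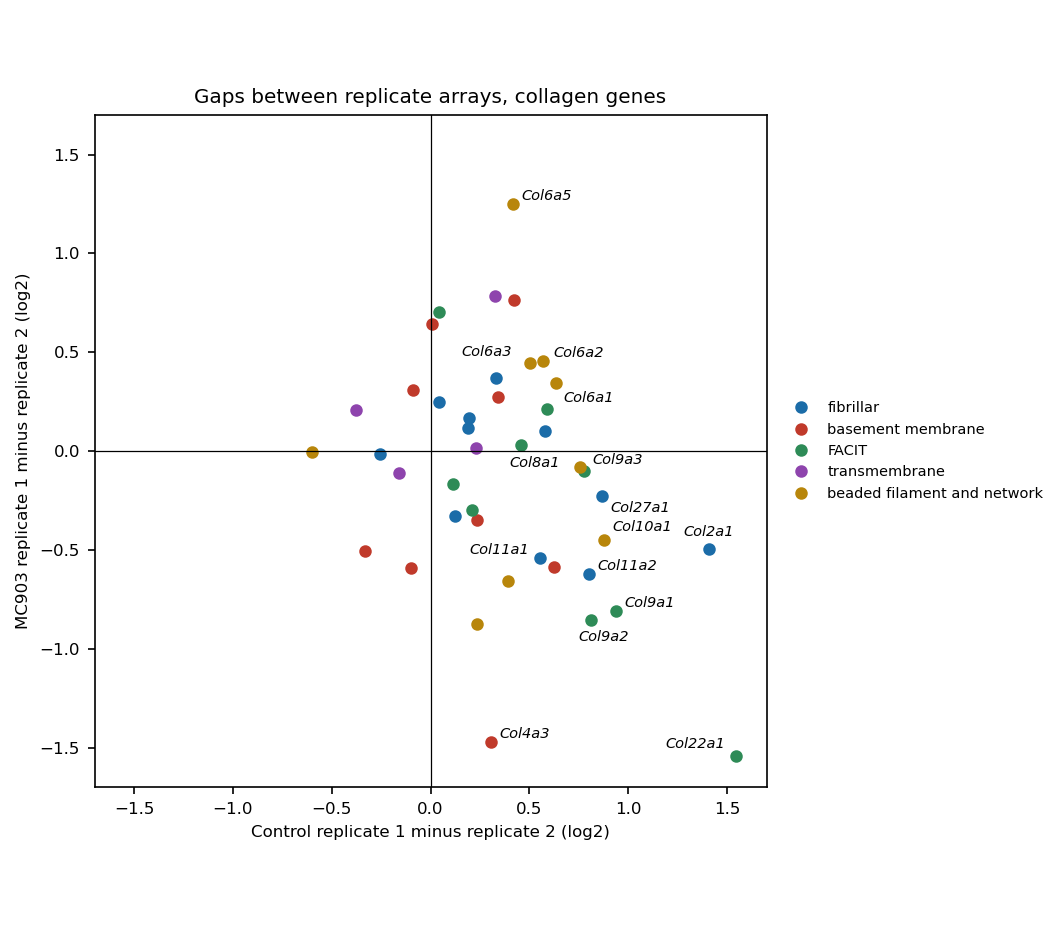
Gap between the replicate arrays of each collagen gene, Control replicate 1 minus 2 on the horizontal and MC903 replicate 1 minus 2 on the vertical axis, both on the log2(signal + 16) scale, coloured by class. Of 42 genes, 35 lie right of 0. The collagen VI chains Col6a1, Col6a2 and Col6a3 lie together at upper right. The collagen IX and XI genes and Col27a1 lie at lower right, among others such as Col8a1 and Col22a1.

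Chains that join into 1 molecule could be compared by their differences, not by their levels, since each has its own probes. In collagen I both chains were lower, with differences of -0.70 and -0.46, and in collagen VI the differences of Col6a1, Col6a2 and Col6a3 spanned -0.036 to 0.17. In collagen V, Col5a1 was lower without overlap and Col5a2 was not. The Col5a1 interval of -0.90 to 0.0064 and that of Col5a2, -0.49 to 0.73, share part of their range, and the difference between the chains was not tested.

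Other probe sets of the same genes gave a check within the arrays, though not an independent one. Of the 82 probe sets, 59 were above the TrpnX controls on all 4 arrays, and of these 25 (42.4%) were lower and 3 (5.08%) higher on both MC903 arrays, beside 31.5% and 20.4% of the 25076 probe sets of all genes that met the same condition. All 3 probe sets of Col1a2 were lower without overlap, with differences of -0.99 to -0.46, as were all 3 of Col5a1, both of Col1a1, both of Col4a5 and both of Col11a1. For Col20a1, 3 of the other probe sets had differences of the same sign but did not stay above the TrpnX controls on all arrays. Among the 23 other probe sets above those controls, 19 had the sign of the chosen one. The 4 that did not belonged to Col3a1, Col4a1, Col5a2 and Col27a1, where the differences of these probe sets ran from -0.19 to 0.25. For Col4a6 the other probe set, at 12.1 and 58.3 in Control and 38.1 and 59.9 in MC903, was dim, with a difference of 0.49.

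**Figure D4:**
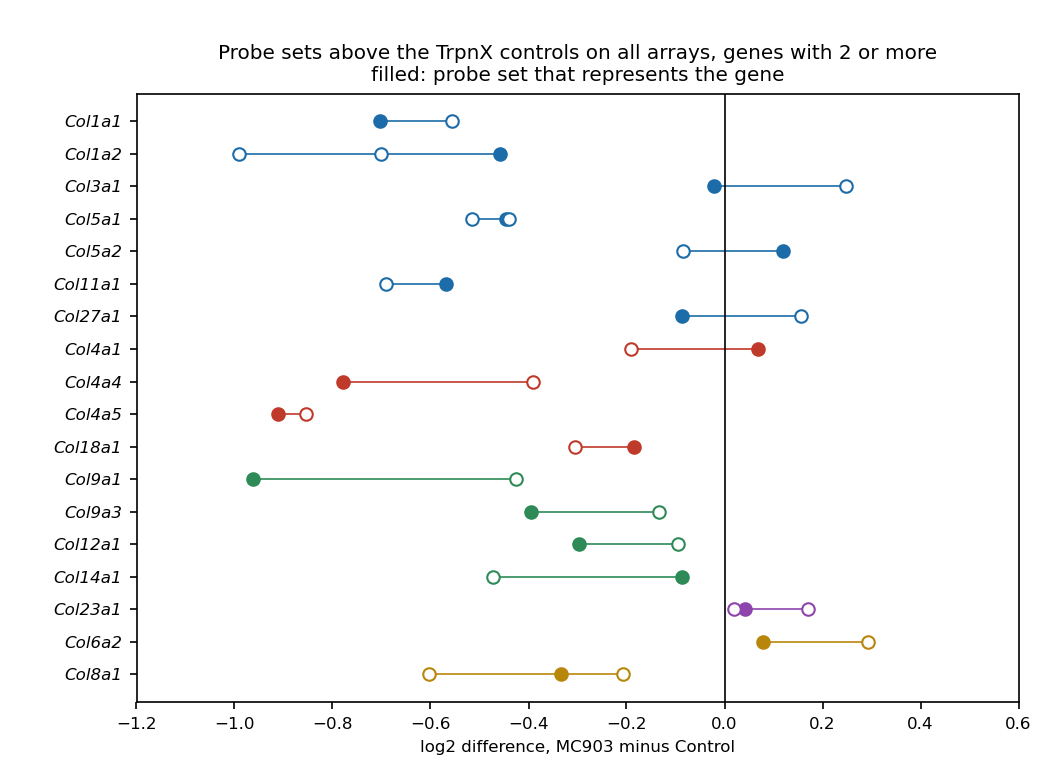
Differences (MC903 minus Control, log2(signal + 16)) of every probe set above the TrpnX controls on all arrays, for the collagen genes with at least 2 such probe sets, coloured by class. Filled points are the probe sets that represent the gene; all points of Col1a1, Col1a2, Col5a1, Col4a5 and Col11a1 lie left of 0, and those of Col3a1, Col4a1, Col5a2 and Col27a1 lie on both sides.

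Genes that make, process, bind or cleave collagen were read from 7 lists, given here with the same backgrounds (28.2% of all genes lower and 21.6% higher without overlap). Of 19 measured genes of chain modification and folding (20 listed), limma called 0, with 2 lower and 3 higher without overlap and a median of -0.021. P4hb, a subunit of the prolyl hydroxylase that stabilises the helix, had signals of 9955 and 9408 in Control and 12609 and 11040.3 in MC903 (0.29 ± 0.17). P3h1, which hydroxylates single prolines, had signals of 94.4 and 61.99 in Control and 96.6 and 148 in MC903 (0.55 ± 0.29). Of 11 measured genes of propeptide processing and cross-linking (14 listed), 0 were called, 4 were lower and 2 higher without overlap, and the median was -0.18. Pcolce2, an enhancer of propeptide removal, had signals of 3625 and 2261 in Control and 1449 and 1917 in MC903 (-0.78 ± 0.31), and Adamts3, a procollagen protease, of 243 and 164 in Control and 123 and 116 in MC903 (-0.68 ± 0.23).

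Genes of fibril-binding proteins and of basement membrane partners had more members lower than higher. Among 16 fibril-binding genes, 8 were lower and 2 higher without overlap, with a median of -0.24. Aspn, a small leucine-rich proteoglycan, had signals of 7203 and 6565 in Control and 4173 and 4428 in MC903 (-0.68 ± 0.16). Tnc, the tenascin of wounds and inflamed dermis, was higher on both MC903 arrays, with signals of 1953 and 2162 in Control and 6412 and 3002 in MC903 (1.09 ± 0.40). Of 20 measured basement membrane partners of collagen (21 listed), 12 were lower and 2 higher without overlap, and the median was -0.36. Npnt, the integrin ligand nephronectin, had signals of 645 and 694 in Control and 261 and 402 in MC903 (-1.01 ± 0.25), and the laminin chain Lama5 of 537 and 496 in Control and 228 and 375 in MC903 (-0.78 ± 0.28).

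Receptors and uptake proteins for collagen had similar counts in each direction. Of 11 measured (12 listed), 3 were lower and 4 higher without overlap, and the median was 0.021. Ddr2, a receptor tyrosine kinase for fibrillar collagen, had signals of 995 and 957 in Control and 1901 and 1801 in MC903. The arrays of a group were close to each other, with a difference of 0.91 ± 0.15 (limma, adjusted p = 0.180, or 0.0401 with the prior that follows the signal, its only call among these lists). Lair1, an inhibitory collagen receptor of leukocytes, had signals of 60.8 and 94.3 in Control and 257 and 194 in MC903 (1.38 ± 0.27), beside the higher leukocyte markers given above. Of 14 genes of collagen cleavage, 4 were lower and 5 higher without overlap, with a median of 0.39. The collagenase Mmp13 had signals of 61.6 and 97.3 in Control and 1778 and 529.6 in MC903 (3.40 ± 0.63), and the inhibitor Timp1 of 556 and 503 in Control and 14719 and 1356 in MC903 (3.04 ± 1.18), with unequal MC903 arrays in both. Of 12 measured genes of the TGF-beta pathway and its fibroblast targets (13 listed), 3 were lower and 2 higher without overlap, with a median of 0.0060 that was -0.11 with probe sets averaged. The ligand gene Tgfb3 had signals of 549 and 572 in Control and 295 and 270.3 in MC903 (-0.95 ± 0.16), and that of Tgfb1, a strong inducer of collagen I in fibroblasts, of 172 and 224 in Control and 454 and 247 in MC903 (0.72 ± 0.34). In each of these lists limma with a constant prior called 0 genes over all genes tested, and at an unadjusted p below 0.05 there were 16 lower and 5 higher genes among the 103 genes of the 7 lists, beside 8.41% and 6.81% of all genes.

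**Figure D5:**
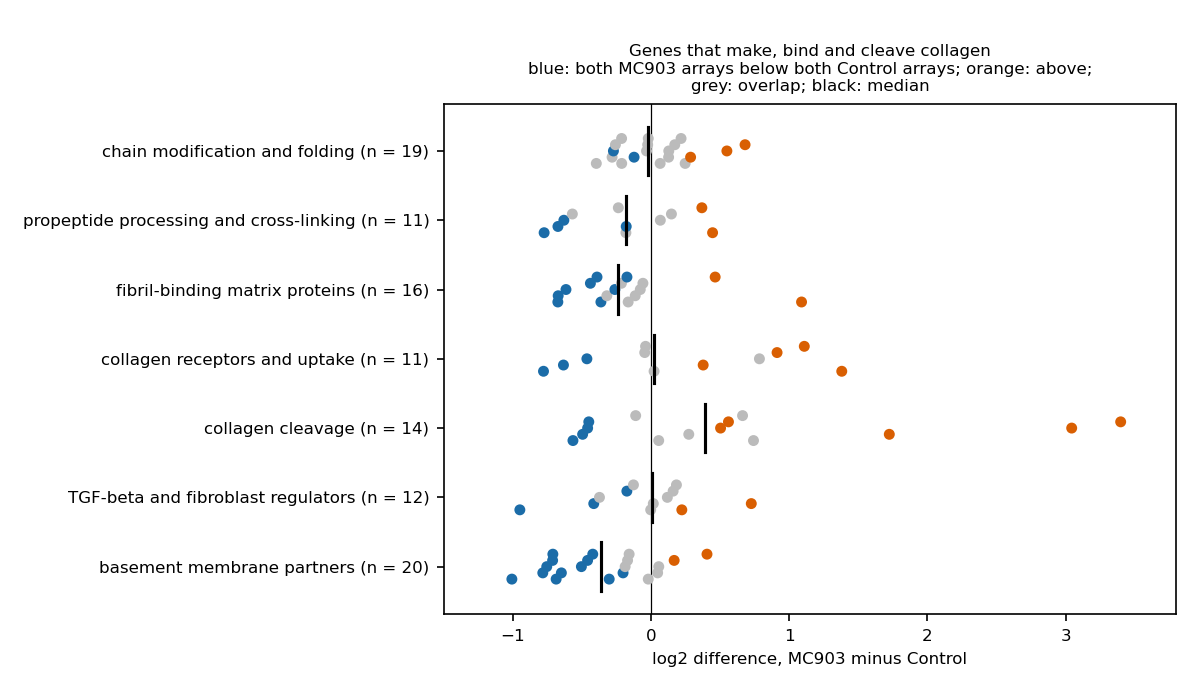
Differences (MC903 minus Control, log2(signal + 16)) of the genes in 7 lists that make, bind or cleave collagen or regulate it, 1 point per gene, with the list median as a black line. Blue points are genes lower and orange points genes higher on both MC903 arrays, grey points overlap; 12 of 20 basement membrane partners are blue, and the farthest points to the right are Mmp13 and Timp1.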

How the data were processed

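Total RNA of mouse skin (2 Control and 2 MC903 samples) was labelled from 200 ng with a 3′ IVT kit, per the labels' protocols. The authors deposited linear signal intensities for 45101 probe sets on 4 arrays. In the deposited values, the mean of each array without its highest and lowest 2% was 500. The software and any further normalization are not given in the sources used here. Intensities carry no counts, so the depth is not defined, and the 2 arrays per group limit the precision.

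Probe sets were named through the platform annotation, with 34945 carrying 1 gene symbol, 932 several and 9160 none. Of the 34945, 34741 were matched by gene ID to the RefSeq table of GRCm38.p6, and 64 control probe sets were left out. For each of the 18193 genes the probe set with the highest mean signal was used. Log2(signal + 16) was fitted by limma 3.58.1 under R 4.3.3 (eBayes, prior variance constant over genes, 2 residual and 2.31 prior degrees of freedom), and p-values were adjusted by Benjamini-Hochberg over all 18193 genes, with 0.05 as threshold. The fit was tested on simulated data, in which values were drawn independently and the shifts added to brighter genes were larger than any member's difference. Smaller shifts, and gaps between replicate arrays shared by many genes, were not simulated. Groups were said not to overlap where both MC903 arrays lay on 1 side of both Control arrays. The 95% intervals use the moderated standard error.

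The collagen members, pathway lists and marker lists (fibroblast, epidermis, basal keratinocyte, hair follicle, dermal papilla, cartilage, skeletal muscle, endothelium, smooth muscle and pericyte, Schwann cell, adipocyte, leukocyte) were chosen with earlier results of these data known. Every member was described. In each pathway list the genes passing the test were named, at most 4. Where none passed, the 2 with the largest absolute difference were named among those whose groups did not overlap and whose mean signal was over 100, and marker lists followed the same rule where a result needed them. Alternatives were another prior (following the signal, or robust), added constants of 1 and 64, centring of each array on its median, quantile normalization, no dimmer 25% or 50% of genes, averaged probe sets, another choice of probe set, the replicate number as a block, and each array left out.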

Additional observations from a re-analysis of the deposited data

How the results depend on the processing

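Limma called 0 of the 42 collagen genes under each of the 15 alternatives, while its calls over all genes went from 5 to 168 with a prior that follows the signal, 69 with an added constant of 64, 12 with probe sets averaged, and 37 and 192 without the dimmer 25% and 50% of genes. They were 3 with a robust prior, 4 with quantile normalization, 4 with centring, and 0 with a constant of 1, with the probe set of highest mean log2 value or without any 1 array. Without the dimmer 50% of genes 24 members were left, of which 9 were lower and 0 higher without overlap, beside 33.3% and 23% of all genes kept, and with probe sets averaged 4 were higher, beside 20.7% of all genes. When single arrays were left out, 18 to 28 members were lower and 4 to 12 higher without overlap. Over all genes the shares were then 38.9% to 44.2% lower and 32.3% to 35.8% higher. All 17 members whose groups did not overlap kept their sign under the 15 alternatives, which was largely fixed in advance. Where groups do not overlap, another prior, added constant, block or filter, or 1 array left out, cannot turn the sign. Only centring, quantile normalization, averaged probe sets and another choice of probe set could have done so. Of the other 25 members, 20 turned sign under at least 1 alternative. The median of all members ranged from -0.38 to -0.14.

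The basement membrane median was -0.33 with a constant of 64, -0.20 without the dimmer 50% of genes, -0.24 with probe sets averaged, and -1.01 to -0.34 with single arrays left out. Over the pathway lists, 1 gene was called with the prior that follows the signal (Ddr2) and 2 without the dimmer 50% of genes (Ddr2 and Tgfb3). The median of the TGF-beta list was 0.088 with centring, -0.11 with probe sets averaged and -0.14 to 0.059 with single arrays left out, and that of the receptors was 0.048 to 0.27 with single arrays left out. The cause of these shifts was not tested.

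With the replicate number as a block, limma called 0 genes in all, with a smallest adjusted p among members of 0.310 and the same differences. Replicate 1 minus replicate 2 correlated at -0.061 between the groups over 18193 genes, so the numbers are not taken to pair the samples. Dim members limit what can be read: 4 members were not above the TrpnX controls on both arrays of a group on the probe set that stood for them, and for Col22a1 among them other probe sets were.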

Other observations

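Markers of other cell types that lie in collagen-rich skin were read as well, as values with no explanation. Adipocyte markers (8 measured of 10) were higher on both MC903 arrays for 6 genes and lower for 0, with a median difference of 0.67 and summed signals of 14617 and 13242 in Control and 18845 and 26542 in MC903. Markers of the dermal papilla, the fibroblasts at the base of the hair follicle (11 measured of 12), were lower without overlap for 5 genes and higher for 2, with a median of -0.31. Smooth muscle and pericyte markers were lower for 4 of 10 genes and higher for 1, with a median of -0.17. Over all 18193 genes, 28.2% were lower and 21.6% higher without overlap.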
